A study of Mus musculus with 8 samples.

Results

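Genes of the extracellular matrix and of fibrosis were followed in the hearts of 2-month-old mice with lowered Taz, the gene of the cardiolipin-remodelling enzyme tafazzin. A list of 44 genes was used, made up of collagens, basement membrane proteins, crosslinking enzymes and elastic fibre proteins, small proteoglycans, adhesive proteins, TGF-beta ligands, and proteases with their inhibitors. A listed gene was kept if at least 1 of its probes had a detection p under 0.05 on 4 or more of the 8 arrays, which left 30 of the 44 genes, among 6889 named genes that met the same rule. The knockdown group held 4 mice with a doxycycline-inducible short hairpin RNA against Taz, a model of Barth syndrome, and the control group 4 wild-type littermates. All 8 mice were on the C57BL/6J background and received the same diet with doxycycline at 625 mg/kg, so the drug was common to both groups. The promoter that drives the hairpin was not given in the labels, nor was the sex of the mice or the chamber of the heart that was taken. Each array held RNA of a separate mouse, so the spread within a group is one between animals.

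The cardiac matrix is made mostly by fibroblasts and mural and endothelial cells rather than by cardiomyocytes. Fibrillar collagens give the wall its tensile strength, collagen IV and laminins form the basement membrane around each myocyte and capillary, and lysyl oxidases crosslink collagen and elastin. In the fibrotic heart TGF-beta signalling turns fibroblasts into myofibroblasts, which carry smooth muscle actin and deposit collagen, periostin and fibronectin. In RNA of heart tissue with all its cell types, fewer cells of a type and less RNA per cell cannot be told apart.

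Taz itself served as the check of the groups. Its brighter probe (ILMN_2978525) had normalized log2 intensities of 9.03, 9.27, 9.25 and 9.04 in wild-type hearts 1 to 4 and 6.15, 6.37, 6.12 and 6.45 in knockdown hearts 1 to 4. The groups were far apart, and Taz fell by 2.88 log2 units (adjusted p = 1.11e-07 by limma). Between 8935 and 10183 probes were detected on an array, and the 95th percentile of the deposited signal lay between 502 and 742, lowest in wild-type heart 3. Precision is limited throughout by the number of arrays, 4 in each group.

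No probe of a matrix gene passed the test between the groups. Of the 36 tested probes of the 30 genes, 0 were higher and 0 lower in knockdown hearts (limma, Benjamini-Hochberg adjusted p under 0.05 over 9397 tested probes), against 6.58% of all tested probes, 3.42% higher and 3.16% lower. At an unadjusted limma p under 0.05 there were 3 of 36, the 2 probes of Timp1 and that of Tgfb1, where 20.8% of all tested probes reached that level. The groups did not overlap for 2 of 36, a probe of Timp1 and the probe of Tgfb1, against 14.6% of all tested probes. Counting 1 probe per gene, the brightest, 17 of the 30 genes had a positive and 13 a negative difference. The positive share was 56.7%, against 47.8% of all tested genes. Their median was 0.04 on the log2 scale, and -0.01 over all tested genes. The size of the difference had a median of 0.169 for matrix genes and 0.149 for all genes.

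The intervals show how large a difference on the normalized scale these arrays could have missed. For dim probes they do not bound the change of the transcript, because the offset added before log2 draws differences toward 0. The dimmer Taz probe (ILMN_2696855) had a mean deposited signal of 78.1 in wild-type and 11.6 in knockdown hearts, yet its normalized ratio was 0.339. For 24 of the 36 probes the 95% interval of the difference lay inside 1.5-fold in either direction (66.7%, against 72.2% of all tested probes), and for 35 of 36 inside 2-fold (97.2%, against 96.4%). Elastin was the exception. The median residual SD was 0.230 on the log2 scale for the matrix probes and 0.194 for all tested probes, so single matrix genes varied somewhat more between mice of a group.

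**Figure D1:**
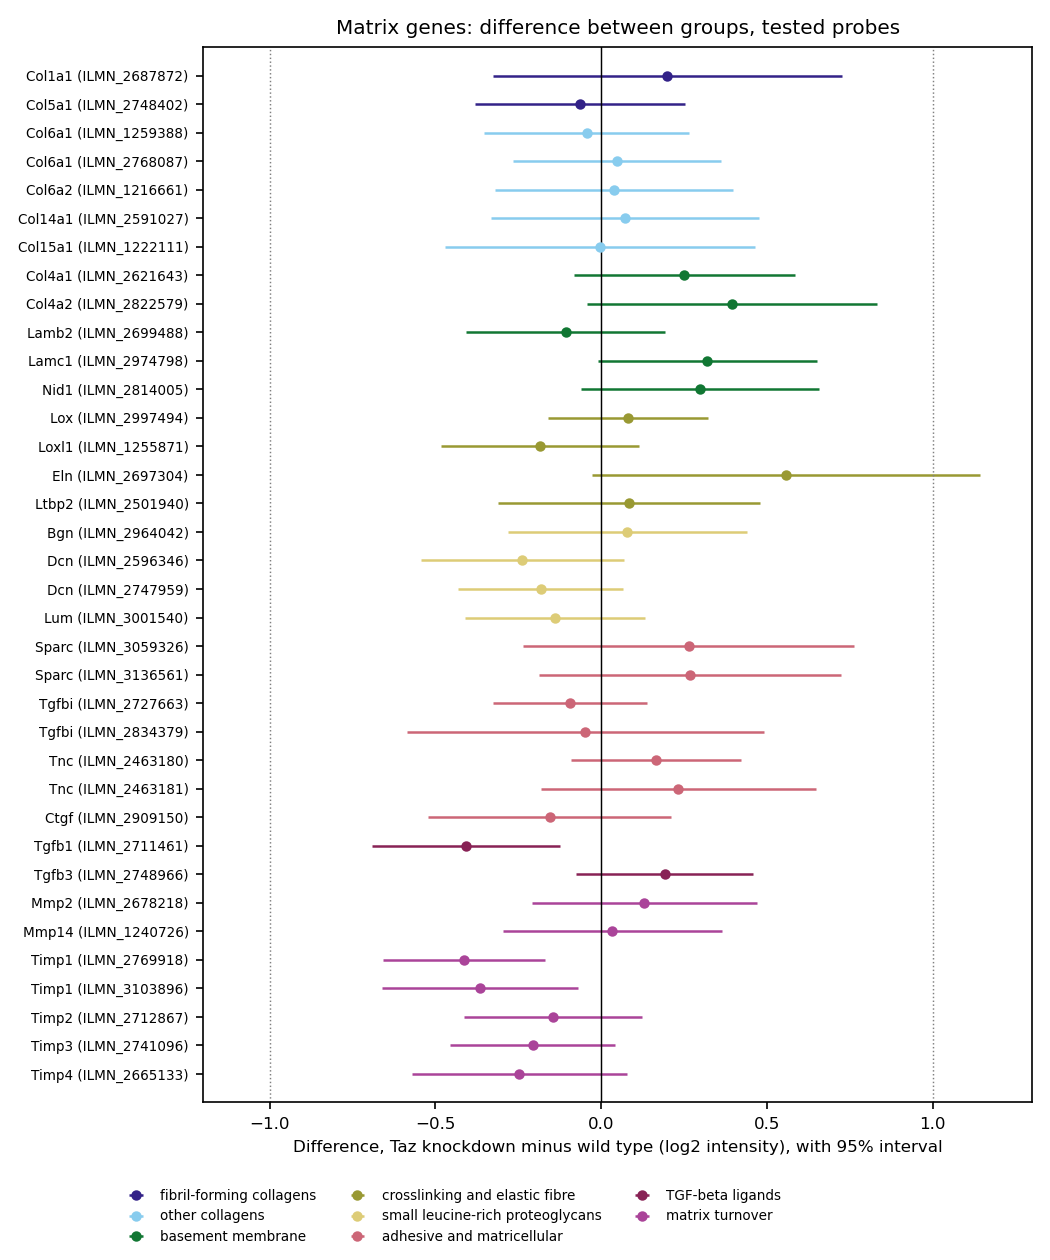
Log2 difference, knockdown minus wild type, of each of the 36 tested matrix probes (points) with its 95% interval (bars), coloured by role, with dotted lines at 2-fold in either direction. The intervals of the 2 Timp1 probes and of Tgfb1 lie below 0, and the interval of Eln reaches beyond 2-fold.

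Among the fibril-forming collagens only Col1a1 and Col5a1 were bright enough to test. Col1a1, a chain of type I collagen, the main fibre of the heart, stood at 8.51, 7.99, 7.19 and 7.98 in wild-type hearts and at 8.26, 7.72, 8.16 and 8.32 in knockdown hearts. The groups overlapped, and the wild-type hearts alone spanned more than the distance between the group means. The difference was 0.20 ± 0.24 (SE) on the log2 scale, a ratio of 1.15 with an interval of 0.797 to 1.66 (limma adjusted p = 0.705, exact permutation p = 0.600). Without wild-type heart 3 it was -0.04, and over the runs with 1 heart left out it ranged from there to 0.40. Col5a1, a chain of the collagen that seeds type I fibrils, differed by -0.06 (limma adjusted p = 0.849).

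Type III collagen, the other main collagen of the heart, could not be tested. The brighter Col3a1 probe (ILMN_1258629) had deposited signals of 13.4, 14.9, 10.3 and 7.04 in wild-type and 14.0, 9.01, 15.6 and 20.3 in knockdown hearts, and only knockdown heart 4 was detected. Its other probe was detected in no heart. The Col1a2 probe was detected in 1 wild-type and 1 knockdown heart, at signals of 6.11 to 20.8, and the Col5a2 probe in none. These 3 genes were not well above background, which leaves their levels unknown and does not show that the transcripts were missing.

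The other collagens were nearly level. Col6a1 and Col6a2, chains of the microfibrillar collagen VI that links cells to the interstitial matrix, differed by 0.05 (brighter probe of Col6a1, 10.25, 10.16, 9.81 and 10.06 in wild-type and 10.05, 9.83, 10.19 and 10.40 in knockdown hearts) and by 0.04. The dimmer tested probe of Col6a1 (ILMN_1259388) had the opposite sign, at -0.04. Col15a1, a collagen at the outer face of basement membranes, stood at -0.0034. Col14a1, which binds to the surface of fibrils, had the largest difference of this class, 0.07, with wild-type values of 5.78, 4.99, 4.95 and 5.01 and knockdown values of 5.52, 5.15, 5.10 and 5.25. That probe was detected in 1 wild-type and 3 knockdown hearts only, and wild-type heart 1 alone stood apart from its group. The limma adjusted p of these collagens lay between 0.870 and 0.996.

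Genes of the basement membrane had mostly positive differences, none of which passed. Of the 5 tested, 4 had positive differences, beside 47.8% of all tested genes, and the median was 0.30 on the log2 scale. Col4a2, which with Col4a1 makes the common collagen IV network, stood at 11.40, 10.96, 10.40 and 10.69 in wild-type and 11.38, 10.91, 11.42 and 11.31 in knockdown hearts. Wild-type heart 1 was as high as the knockdown hearts and knockdown heart 2 as low as wild-type heart 2, so the groups overlapped. The difference of 0.39 ± 0.199 (SE) is a ratio of 1.31 with an interval of 0.970 to 1.78 (limma adjusted p = 0.294, exact permutation p = 0.229). Col4a1 was likewise lowest in wild-type heart 3 and highest in knockdown heart 3, with 11.80, 11.44, 11.20 and 11.52 in wild-type and 11.79, 11.41, 11.90 and 11.86 in knockdown hearts, and a smaller difference of 0.25 (adjusted p = 0.393). The pair is transcribed head to head on chromosome 8 in the RefSeq annotation of GRCm38.p6, with Col4a1 starting at 11312826 on the minus strand and Col4a2 at 11312805 on the plus strand, so that their annotated starts overlap by 22 bases.

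Lamc1, the gamma chain shared by most laminins, had the smallest p of the class. Its wild-type values were 8.91, 8.50, 8.24 and 8.28 and its knockdown values 8.97, 8.70, 8.72 and 8.82. All knockdown hearts lay above wild-type hearts 2, 3 and 4, and only wild-type heart 1 reached into their range. The difference was 0.32 ± 0.15 (SE), a ratio of 1.25 with an interval of 0.993 to 1.57 (limma adjusted p = 0.256, exact permutation p = 0.114). Nid1, which ties laminin to collagen IV, differed by 0.30 (adjusted p = 0.341), and Lamb2, a laminin beta chain, by -0.11 (adjusted p = 0.724). Lamb1, the other beta chain on the list, was detected in 1 knockdown heart only. The class median was 0.24 without wild-type heart 3 and 0.36 without knockdown heart 2. Over all runs with 1 heart left out it ranged from 0.21 to 0.43.

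**Figure D2:**
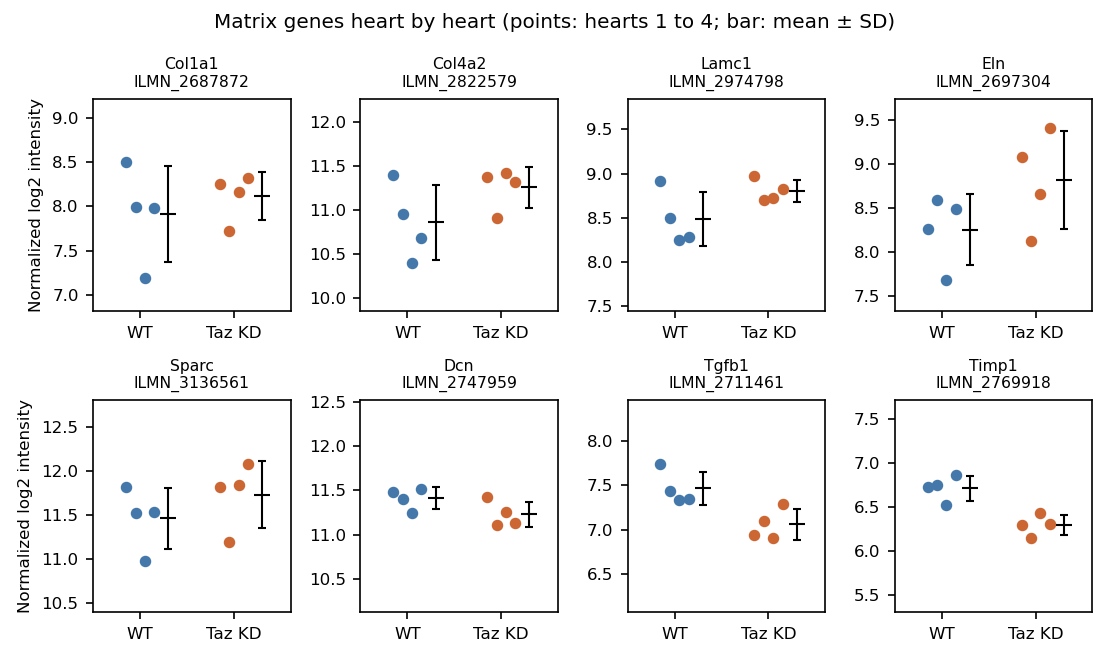
Normalized log2 intensity of selected matrix genes in each of 8 hearts (points, hearts 1 to 4 from left to right) with the mean and SD of each group (bars, n = 4). Every panel spans the same number of log2 units around its mean, so distances can be compared between panels but levels cannot. Groups overlap in all panels except those of Tgfb1 and the Timp1 probe ILMN_2769918.

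Elastin had the largest difference of all tested matrix genes and the widest interval. Eln, the core protein of elastic fibres, was at 8.26, 8.59, 7.69 and 8.49 in wild-type hearts and 9.08, 8.12, 8.66 and 9.40 in knockdown hearts. Knockdown hearts 1, 3 and 4 lay above every wild-type heart, and knockdown heart 2 fell inside the wild-type range. The difference was 0.56 ± 0.266 (SE), a ratio of 1.47 with an interval of 0.981 to 2.21 (limma adjusted p = 0.264, exact permutation p = 0.171). It was 0.37 without wild-type heart 3 and 0.79 without knockdown heart 2. The crosslinking enzymes Lox and Loxl1 and the microfibril-associated protein gene Ltbp2 differed by 0.08, -0.18 and 0.08 (adjusted p = 0.744, 0.496 and 0.843), and Ltbp2 was detected in 1 wild-type and 3 knockdown hearts. The Loxl2 probe was detected in no heart.

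The small leucine-rich proteoglycans, which bind to collagen fibrils and set their width, had a median difference of -0.14, and none passed. Dcn, the gene of decorin, differed by -0.18 by its brighter probe, ILMN_2747959 (adjusted p = 0.408). Its dimmer probe, ILMN_2596346, stood at 7.33, 7.66, 7.34 and 7.52 in wild-type and 7.44, 7.12, 7.41 and 6.93 in knockdown hearts, with overlap, and differed by -0.24 ± 0.139 (SE; limma adjusted p = 0.376, exact permutation p = 0.200). Lum, the gene of lumican, was at -0.14 (adjusted p = 0.586) and Bgn, that of biglycan, at 0.08 (adjusted p = 0.839).

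The adhesive and matricellular proteins include the genes most used as signs of an active fibroblast. Postn, the gene of periostin, which activated fibroblasts secrete, was detected in none of the 8 hearts. Its deposited signals were -3.80, -1.88, 2.42 and 3.12 in wild-type and -7.52, 3.29, -8.01 and -13.4 in knockdown hearts, all at the level of background. Thbs1, which can activate latent TGF-beta, was detected in none either, and Sparcl1, a relative of Sparc, in 1 wild-type and 2 knockdown hearts. Fn1 and Spp1, the genes of fibronectin and osteopontin, had no probe named for them in the annotation used and were not analysed here, like Col8a1, Col12a1 and Fbn1.

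Ctgf, the connective tissue growth factor now called Ccn2 and a common TGF-beta target, was well detected. It stood at 10.45, 10.99, 10.25 and 10.93 in wild-type and at 10.52, 10.30, 10.59 and 10.58 in knockdown hearts. The knockdown hearts lay close together inside the wild-type range. The difference was -0.16 ± 0.167 (SE), a ratio of 0.898 with an interval of 0.697 to 1.16 (limma adjusted p = 0.666, exact permutation p = 0.429). Sparc, a collagen-binding protein needed for fibre assembly, stood at 11.81, 11.52, 10.98 and 11.54 in wild-type and 11.81, 11.20, 11.84 and 12.08 in knockdown hearts by the probe ILMN_3136561, a difference of 0.27 ± 0.208 (SE; limma adjusted p = 0.520, exact permutation p = 0.400), and its other probe gave 0.26. Wild-type heart 3 and knockdown heart 2 were the lowest of their groups.

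Tnc, the gene of tenascin C, which is scarce in the resting adult heart, had 6 probes of which 2 were tested, both dim. The probe ILMN_2463180 was detected in 1 wild-type and 3 knockdown hearts, at 5.08, 5.19, 4.79 and 5.02 against 5.14, 5.35, 5.18 and 5.07, with overlap, and differed by 0.17 ± 0.117 (SE; limma adjusted p = 0.473, exact permutation p = 0.200). The other, detected in 2 wild-type and 4 knockdown hearts, differed by 0.23 (adjusted p = 0.542). Tgfbi, a TGF-beta-induced adhesive protein, was at -0.09 and -0.05 by its probes (adjusted p = 0.685 and 0.935).

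Tgfb1, the ligand most tied to cardiac fibrosis, was 1 of the 2 matrix genes with a probe whose groups did not overlap. Its values were 7.74, 7.44, 7.34 and 7.35 in wild-type and 6.94, 7.10, 6.90 and 7.29 in knockdown hearts. No knockdown heart reached the wild-type range, though knockdown heart 4 came close to wild-type hearts 3 and 4. The difference was -0.41 ± 0.13 (SE), a ratio of 0.754 with an interval of 0.619 to 0.919, and it did not pass (limma adjusted p = 0.0935). The exact two-sided permutation p was 0.0286, the smallest that the 70 assignments of 8 hearts can give. Tgfb3 differed by 0.19 (adjusted p = 0.422), and the Tgfb2 probe was detected in no heart.

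Among the genes of matrix turnover, Timp1 came nearest to the threshold. Timp1, an inhibitor of matrix metalloproteinases that is often induced in injured tissue, stood at 6.72, 6.74, 6.52 and 6.87 in wild-type and 6.30, 6.15, 6.43 and 6.31 in knockdown hearts by the probe ILMN_2769918. The groups did not overlap, and wild-type heart 3 was the closest to the knockdown hearts. The difference was -0.41 ± 0.111 (SE), a ratio of 0.751 with an interval of 0.633 to 0.889 (limma adjusted p = 0.0506, exact permutation p = 0.0286). By the probe ILMN_3103896 the values were 7.08, 6.73, 6.56 and 7.04 against 6.61, 6.38, 6.58 and 6.39, with a difference of -0.37 ± 0.135 (SE; limma adjusted p = 0.148, exact permutation p = 0.0857). There the groups overlapped through wild-type heart 3. The probe ILMN_2769918 passed, lower in knockdown hearts, without wild-type heart 3 (adjusted p = 0.0406) and with an offset of 50, a stricter detection filter or array weights (adjusted p = 0.0450, 0.0241 and 0.0470). In the other alternatives it did not pass, and its limma adjusted p reached 0.133.

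The other inhibitors also had negative values without passing, with -0.15 for Timp2, -0.21 for Timp3 and -0.25 for Timp4 (adjusted p = 0.560, 0.338 and 0.388). The proteases Mmp2, a gelatinase, and Mmp14, a membrane-bound collagenase that activates it, differed by 0.13 and 0.03 (adjusted p = 0.698 and 0.927). The median of the class was -0.18, with 2 genes positive and 4 negative.

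The hearts of a group differed from each other in many matrix genes at a time. Wild-type heart 3 was the lowest of its group in 27 of 36 matrix probes (75%), against 27.4% of all tested probes, and knockdown heart 2 in 25 of 36 (69.4%, against 24.7%). Wild-type heart 1 was the highest of its group in 52.8% of matrix probes (26.0% of all) and knockdown heart 4 in 47.2% (28.2% of all). The median deviation of the matrix probes from their means over 8 hearts was 0.19, 0.07, -0.23 and -0.04 in wild-type hearts 1 to 4 and 0.04, -0.22, 0.08 and 0.09 in knockdown hearts 1 to 4. Each group thus held 1 heart that was low across most of the list. The median over the 30 genes was -0.04 without wild-type heart 3 and 0.12 without knockdown heart 2.

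**Figure D3:**
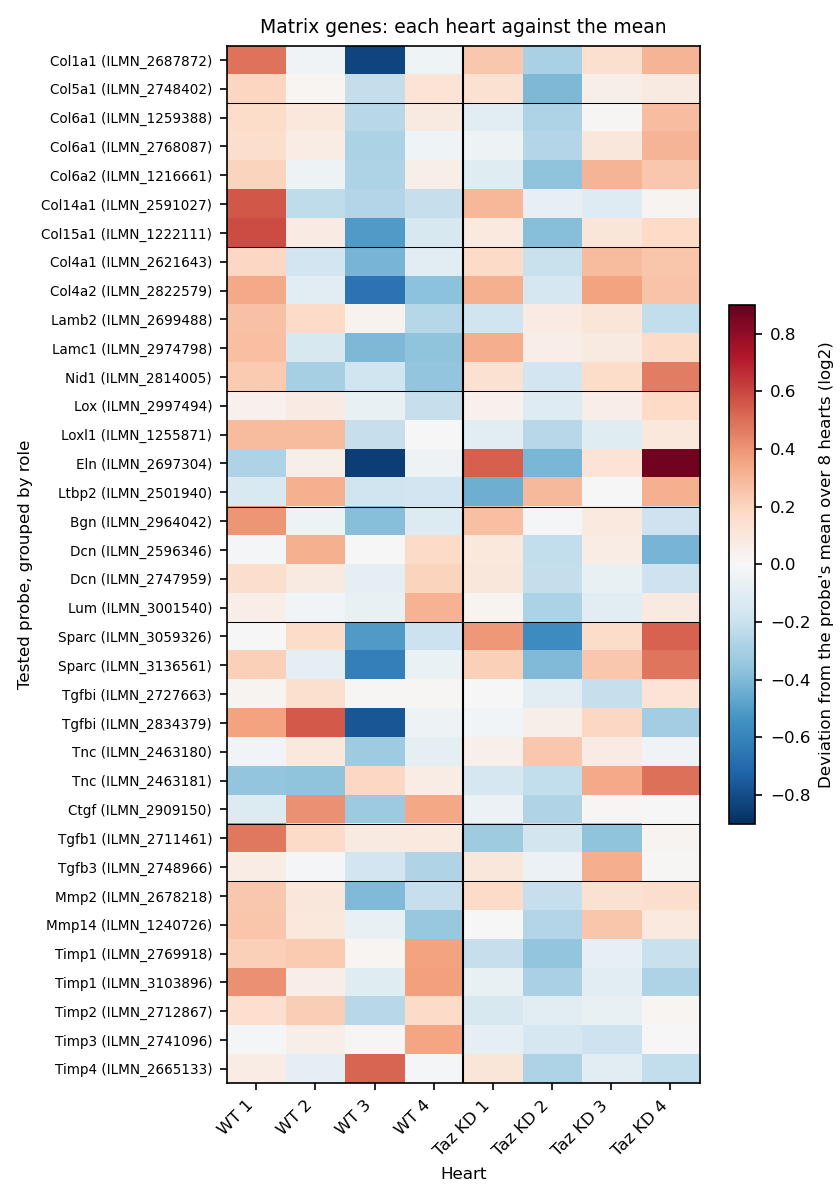
Deviation of each heart's normalized log2 intensity from the mean over 8 hearts (colour) for the 36 tested matrix probes (rows, grouped by role) and the 8 hearts (columns). Wild-type heart 3 and knockdown heart 2 are low across most rows, with median deviations of -0.23 and -0.22.

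Fibroblast markers were low in the same hearts. Their median deviation was 0.09, 0.16, -0.15 and 0.08 in wild-type and 0.09, -0.31, -0.01 and 0.06 in knockdown hearts, lowest in wild-type heart 3 and knockdown heart 2. Endothelial markers were at -0.01 in wild-type heart 3 and -0.12 in knockdown heart 2. In the same order, pericyte markers were at -0.11 and -0.09, macrophage markers at 0.01 and -0.24, and mesothelial markers at -0.27 and -0.04. Cardiomyocyte markers were at 0.05 and -0.06. Atrial markers were at -0.18 and -0.22, but knockdown hearts 1 and 3 were lower still, at -0.32 and -0.56. Of these other lists, only macrophage markers were also lowest of their group in both hearts. Endothelial and pericyte markers were lowest of their group in knockdown heart 2. In wild-type heart 4 they were at -0.08 and -0.12, no higher than in wild-type heart 3. Mesothelial markers were lowest of their group in wild-type heart 3 but not in knockdown heart 2. The array of wild-type heart 3 had the fewest detected probes, while that of knockdown heart 2, with 9454, was not the dimmest of its group. The part of cell content or array brightness in these shifts was not tested.

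Between the groups the fibroblast markers did not pass either. Of 16 listed, 12 were tested by 13 probes, and 0 were higher and 0 lower, beside 6.58% of all tested probes that passed. Nothing is read from the number of calls in lists this short. The summed normalized level of the fibroblast markers ran from 4615 to 6198 in wild-type and from 3827 to 5299 in knockdown hearts. The 7 pericyte and 10 endothelial markers tested also had 0 calls, with medians of 0.06 and 0.03. Of 6 tested macrophage markers all had negative values (median -0.23), and Lyz2, the macrophage lysozyme, fell by 0.48 (limma adjusted p = 0.0450). Leaving out 1 heart kept that call in 1 of 8 runs, and over the alternatives its adjusted p reached 0.119. The summed macrophage level was 3045 to 3746 in wild-type and 2441 to 2986 in knockdown hearts, beside the negative values of Tgfb1 and Timp1, which macrophages also make. Adgre1, Cd163, Fcgr1 and Itgam were detected in no heart, and the part of macrophages in these values was not tested. Cardiomyocyte markers summed to 144810 to 161243 and 143184 to 150910. The 7 tested atrial markers were all negative with a median of -0.58. None passed, but their smallest limma adjusted p was 0.0526. Of their 10 tested probes 6 had an unadjusted limma p under 0.05, beside 20.8% of all tested probes. Of all tested genes, 47.8% had a positive difference.

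Genes around the matrix list were counted in the same way. Of 15 tested genes of collagen modification and secretion, such as prolyl and lysyl hydroxylases and collagen chaperones, 0 were higher and 0 lower, with a median of 0.11. Of 13 tested genes of TGF-beta signalling and 14 matrix receptors, mainly integrins, 0 passed in either list, with medians of -0.10 and -0.09. Among 24 tested further collagens and matrix proteins 0 were higher and 2 lower, Fbln1 and Mgp, and among 13 proteases and inhibitors 0 were higher and 1 lower, Mmp3. Among 7 tested markers of myofibroblasts and smooth muscle 1 was higher, Acta2, and 1 lower, Smtn. In probes, 2 of 29, 2 of 14 and 5 of 13 passed in the last 3 lists, beside the 6.58% of all tested probes, and nothing is read from these shares about the lists.

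Acta2, the smooth muscle actin that marks both vascular smooth muscle and myofibroblasts, passed by all 4 of its probes. Its brightest probe (ILMN_2693895) was at 13.57, 13.25, 12.99 and 13.57 in wild-type and 14.28, 13.80, 14.31 and 14.41 in knockdown hearts. Every knockdown heart lay above every wild-type heart, and Acta2 rose 1.81-fold with an interval of 1.40 to 2.34 (limma adjusted p = 0.0125). The deposited signal was 10715 ± 2540 (SD, n = 4) in wild-type and 18932 ± 3249 (SD, n = 4) in knockdown hearts. Its other 3 probes rose 2.43-fold, 2.15-fold and 1.94-fold (limma adjusted p = 0.0125, 0.00552 and 0.0120), and all 4 probes passed in every alternative tried.

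No probe of the other tested smooth muscle genes named here passed as higher. Tagln and Myh11, contractile proteins of smooth muscle, differed by -0.42 and -0.33 (limma adjusted p = 0.120 and 0.306). The Tagln probe was dim, with mean deposited signals of 37.7 in wild-type and 23.8 in knockdown hearts. It was detected in 4 wild-type and 3 knockdown hearts. Smtn, the gene of smoothelin, fell by 0.50 by the probe ILMN_2695181 (limma adjusted p = 0.0188). Its other probes differed by -0.32 and 0.31 and did not pass (adjusted p = 0.199 and 0.526), and with all averaged the difference of Smtn was -0.17 (adjusted p = 0.576). Leaving out 1 heart kept the call of ILMN_2695181 in 4 of 8 runs. The myofibroblast genes Fap and Cilp were detected in no heart. Comp, from the same list, was detected in all 8 hearts, though dim at deposited signals of 29.5 to 46.8. It differed by 0.12 (limma adjusted p = 0.746). Of the 7 tested genes of that list, 2 had positive differences, Acta2 and Comp, and 5 had negative ones. Acta1, the skeletal actin, a close copy of Acta2 in its coding sequence, rose by 1.49 log2 units (adjusted p = 0.000102 by limma). Actc1, the cardiac actin, differed by 0.16 by its brighter probe (limma adjusted p = 0.536). Probe sequences were not used here, so whether the Acta2 probes tell these actins apart was not tested, and the rise of Acta2 is uncertain to that extent.

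The 250 bases before the annotated start of Acta2 in RefSeq (GRCm38.p6, chr19:34255374-34255623, minus strand) are shown because Acta2 rose by all of its probes. Capitals mark matches to the CArG box, the binding motif of serum response factor, searched on either strand as CC, then 6 bases with at most 1 G or C, then GG. There were 2 matches, starting 84 and 34 bases before the start, and 8.59% of 32851 such windows held at least 1.
Acta2: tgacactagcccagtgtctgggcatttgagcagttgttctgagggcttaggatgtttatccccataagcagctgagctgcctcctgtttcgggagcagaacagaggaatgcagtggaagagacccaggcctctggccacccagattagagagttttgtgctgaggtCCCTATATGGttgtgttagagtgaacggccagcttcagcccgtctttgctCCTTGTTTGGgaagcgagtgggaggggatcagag

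**Figure D4:**
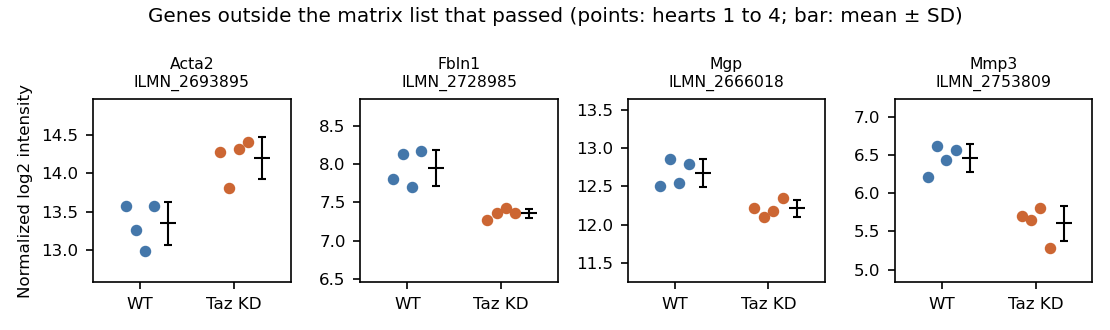
Normalized log2 intensity in each of 8 hearts (points, hearts 1 to 4 from left to right) with the mean and SD of each group (bars, n = 4) for genes outside the matrix list. The knockdown hearts lie above all wild-type hearts for Acta2 and below them for Mmp3, Mgp and the Fbln1 probe ILMN_2728985.

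Mmp3, the gene of stromelysin 1, a protease with many matrix substrates, was the matrix protease that differed most. By the probe ILMN_2753809 it stood at 6.21, 6.62, 6.43 and 6.57 in wild-type and 5.70, 5.64, 5.81 and 5.28 in knockdown hearts, with no overlap. Mmp3 fell 1.80-fold with an interval of 1.46 to 2.23 (limma adjusted p = 0.00454), and its other probe fell by 0.66 on the log2 scale (adjusted p = 0.0379), a call lost in several alternatives. Mgp, the matrix Gla protein, an inhibitor of calcification, fell 1.38-fold with an interval of 1.15 to 1.65 (limma adjusted p = 0.0406), from 12.50, 12.86, 12.55 and 12.80 to 12.22, 12.10, 12.18 and 12.35. The call of Mgp was kept in 5 of 9 alternatives with all hearts and in 3 of 8 runs with 1 heart left out. Its limma adjusted p reached 0.110.

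The result for Fbln1, a protein of elastic fibres and basement membranes, depended on the probe. By ILMN_2728985 it fell 1.51-fold (limma adjusted p = 0.0178), from 7.80, 8.14, 7.70 and 8.17 to 7.28, 7.36, 7.42 and 7.37. By ILMN_2870672 the difference was 0.52 and did not pass (adjusted p = 0.318), and with both averaged it was -0.04 (adjusted p = 0.926). Leaving out 1 heart kept the call of ILMN_2728985 in 5 of 8 runs. Which transcripts of Fbln1 each probe reads was not tested.

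Timp1 and Mmp3 are an inhibitor and a protease of the same system, and the 250 bases before their annotated starts in RefSeq are shown for the gene nearest to the threshold within the list and the gene with the smallest adjusted p in the protease list. The windows are chrX:20869916-20870165 and chr9:7445572-7445821 of GRCm38.p6, both on the plus strand. Capitals mark the AP-1 motif, searched as TGANTCA on either strand. Mmp3 had 1 match, starting 46 bases before the start, and 6.75% of 32851 windows held at least 1, while these letters were not in the window of Timp1.
Timp1: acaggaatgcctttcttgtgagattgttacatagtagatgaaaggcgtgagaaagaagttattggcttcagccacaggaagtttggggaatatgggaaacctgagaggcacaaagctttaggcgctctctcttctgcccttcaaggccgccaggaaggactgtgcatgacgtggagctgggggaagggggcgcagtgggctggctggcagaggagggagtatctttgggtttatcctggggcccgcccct
Mmp3: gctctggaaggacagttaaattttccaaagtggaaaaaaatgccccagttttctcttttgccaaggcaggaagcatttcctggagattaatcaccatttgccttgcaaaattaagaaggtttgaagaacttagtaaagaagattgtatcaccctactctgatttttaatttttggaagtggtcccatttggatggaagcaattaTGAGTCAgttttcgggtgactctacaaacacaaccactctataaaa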

How the data were processed

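Total RNA of 8 mouse hearts was hybridised to Illumina bead arrays. The authors deposited a non-normalized table with an intensity and a detection p-value per probe and array, per the file headers, and a second deposited table of normalized intensity, used as an alternative. Scanner software and background subtraction are not stated in those sources. The neqc function (limma 3.58.1, R 4.3.3) corrected intensities by normexp, taking the background from the detection p-values, added an offset of 16, quantile-normalized the arrays and took log2. The offset draws differences of dim probes toward 0. Probes detected (p under 0.05) on 4 or more of 8 arrays were tested with lmFit and eBayes, two-sided, with Benjamini-Hochberg adjustment over 9397 probes and 95% moderated intervals. The procedure was tested on simulated data.

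Genes were named through the platform annotation, updated by the RefSeq gene table. Of the 44 listed genes 39 had a named probe, 52 probes in all, and 36 probes of 30 genes were tested, 32 of them detected on all 8 arrays. Of the 16 probes left out, 9 genes had no other. Summaries take 1 probe per gene, that with the highest mean. Promoter sequences came from RefSeq, whose table held 27 of the 44 genes.

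The members, the other lists and the markers were chosen with earlier results of these data known, so no list was tested as a set and no p was adjusted over a list. Heart-by-heart values are given for Col1a1, Col3a1, Postn, Ctgf, Tgfb1, Timp1 and, in each role, the members with the smallest p and the largest difference. Col4a1, Col6a1 and the actins were added after their values were seen. Of the other lists, up to 4 genes past the threshold are named, and Tagln, Myh11 and the promoters were chosen after the values were seen. Replicate numbers came from the sample descriptions. Alternatives were the authors' normalized table, an offset of 50, scaling to the 75th percentile, other detection filters, an intensity trend, array weights, averaged probes, a replicate block and leaving out each heart.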

Additional observations from a re-analysis of the deposited data

Results flagged for a closer look

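In 7 of the 92 groups of 4 hearts examined for 46 probes, the highest or lowest heart stood apart, with a gap to its neighbour, as a share of the range of the group, above Dixon's 95% critical value. Chance flags about 1 in 20 groups. Knockdown heart 2 was low for Col5a1 (gap 0.844 of the range), Col15a1 (0.840) and Mmp2 (0.902). Their normalized log2 values there were 8.02, 8.84 and 9.70, against 8.48, 9.31 and 10.04 in the next knockdown heart. Wild-type heart 3 was low for Timp2 (0.852), at 9.32 against 9.72. Wild-type heart 1 was high for Col14a1 (0.926), and it was the only wild-type heart in which that probe was detected. Wild-type heart 2 was high for Ltbp2 (0.917) and for the Tgfbi probe ILMN_2727663 (0.867), and the Ltbp2 probe was detected in 1 wild-type heart. What set these hearts apart was not tested.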

How the results depend on the processing

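The 0 higher matrix probes held in every alternative, and the differences of the probes of Acta2, Fbln1, Mgp, Mmp3, Smtn and Lyz2 that passed kept their sign in each of them where they were tested. Acta1 was not rerun under the alternatives. The 0 lower probes became 1, the Timp1 probe ILMN_2769918, with an offset of 50, with detection p under 0.01 required on all 8 arrays and with array weights. Leaving out 1 heart gave 0 to 1 lower matrix probes (1 without wild-type heart 3) and 0 to 0 higher. The adjusted p of that Timp1 probe ranged from 0.0241 to 0.133 and that of Tgfb1 from 0.0507 to 0.219. Over all tested probes the 297 lower became 451 with an offset of 50, 471 with an intensity trend and 184 with a replicate block, and 184 to 256 with 1 heart left out: 189 without wild-type heart 4 and 184, 194 and 185 without knockdown hearts 1, 2 and 3. The 321 higher became 434 with the offset, 472 with the trend and 198 to 262 with 1 heart left out, lowest without knockdown heart 2. With the replicate block 215 probes were higher and no matrix probe passed. Deviations of same-numbered hearts correlated between -0.093 and 0.165, and 0 of 4 hearts correlated best with their own number, so the number was not taken as a pairing. The median of the 30 matrix genes was 0.03 to 0.05 in the alternatives with all hearts and -0.04 to 0.12 with 1 heart left out. The medians of the fibril-forming, other collagen and adhesive classes changed sign in some of these runs. Those of the other classes did not. Signal near background limits the dim probes, and 9 listed genes had no probe that met the detection rule. The cause of these shifts was not tested.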
